A study of Homo sapiens with 68 samples.

Results

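The proteasome genes were followed in A673 cells, a human Ewing sarcoma line that carries the EWS/FLI fusion, exposed to 3 cytotoxic drugs. The members were taken by gene symbol. Every probe set annotated to 1 gene whose symbol starts with PSMA, PSMB, PSMC, PSMD, PSME, PSMF or PSMG was kept, 2 interferon-inducible members of the beta family were left out, and the brightest probe set stood for each gene. This gave 40 of the 11882 genes named on the array, measured by 63 probe sets. Of the 40, 38 were subunits, assembly chaperones, activators or the inhibitor PSMF1. The other 2, PSMC3IP and PSME3IP1, carry the letters because they were named as interaction partners of PSMC3 and PSME3, and they were counted but are no subunits.

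Cells received DMSO vehicle, ARA-C (cytarabine, a nucleoside analogue that blocks DNA synthesis), doxorubicin (an anthracycline that poisons topoisomerase II) or puromycin (an aminonucleoside that ends peptide chains early on the ribosome). Each drug was given at the median effective concentration for viability (EC50) and at 2 times that concentration (2xEC50). The concentrations were 0.17 and 0.34 uM ARA-C, 59.88 and 119.76 nM doxorubicin, and 0.09 and 0.18 uM puromycin. RNA was taken at 24 h, day 3 and day 5. Vehicle had 6, 5 and 6 arrays at the 3 times, and treated groups had 3 arrays each, except doxorubicin 2xEC50 day 5 with 2, puromycin EC50 day 5 with 2 used of 3, and puromycin 2xEC50 day 5 with 1. All arrays were of this 1 line. The labels call them biological replicates without naming separate cultures, so p-values measure the spread between these samples, which may be in part technical.

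The proteasome degrades proteins tagged with ubiquitin. Its core particle is a barrel of 2 kinds of rings, outer rings of alpha subunits (PSMA) that gate the entrance and inner rings of beta subunits (PSMB) that hold the proteolytic sites. A regulatory particle caps the barrel, with a base of ATPases (PSMC) and scaffold subunits (PSMD1, PSMD2) that unfold substrates, and a lid (PSMD3, PSMD11 and others) that holds the deubiquitinase PSMD14. Chaperones such as PSMD10 (gankyrin) and PSMG1 help assembly, PSME1 and PSME2 form the interferon-inducible PA28 activator, and PSMF1 (PI31) binds the core particle. When proteasome activity falls short, the transcription factor NRF1 (gene NFE2L1) is known to raise subunit genes through antioxidant response elements in their promoters.

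Promoters were searched for the core of that element, TGACNNNGC, on either strand. Windows from 250 bases before to 50 after the start of transcription (RefSeq, GRCh38.p14) were found for 35 of the 40 genes, and 13 of these 35 (37.1%) held the core. It was present for 1861 of 9591 genes of the array with a window (19.4%) and in 4687 of 35116 windows in all (13.3%). CCAAT, a box bound by NF-Y, was found on either strand for 17 of the 35 (48.6%) and for 4261 of the 9591 (44.4%). A match is a description of the letters and says nothing of binding in these cells. Promoters of 2 lid genes, an alpha gene and both genes of the PA28 ring are shown as examples. The other members with the core were PSMB3, PSMC4, PSMD1, PSMD5, PSMD9, PSME4, PSMG1 and PSMG2. In the following stretches of 60 bases the core is in capitals, 5′ to 3′ in the direction of the gene.
PSMD3, chr17:39980745-39980804, plus strand: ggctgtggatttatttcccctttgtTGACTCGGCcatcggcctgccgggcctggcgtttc
PSMD12, chr17:67366708-67366767, minus strand: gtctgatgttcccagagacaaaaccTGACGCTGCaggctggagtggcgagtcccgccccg
PSMA4, chr15:78540635-78540694, plus strand: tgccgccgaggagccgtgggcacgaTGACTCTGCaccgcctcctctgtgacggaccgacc
PSME1, chr14:24136083-24136142, plus strand: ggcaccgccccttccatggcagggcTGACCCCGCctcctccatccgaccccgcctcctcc
PSME2, chr14:24146751-24146810, minus strand: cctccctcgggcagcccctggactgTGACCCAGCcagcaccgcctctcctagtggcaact

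All values are MAS5 signals, a linear intensity scaled by array. They were set to at least 10 and taken to log2, and differences were tested in 1 limma fit over 22215 probe sets and 67 arrays, with Benjamini-Hochberg adjustment and a threshold of 0.05. The third puromycin EC50 day 5 array was left out: it correlated with the remaining arrays at a median of 0.603, against 0.887 to 0.971 for the rest, its HBB signal was 30546 against at most 123 elsewhere, and its signal of NKX2-2, a gene that marks Ewing cells, was 156 against at least 1379. On the 67 arrays the summed signal of Ewing markers was 38108 to 78244 and that of blood markers 306 to 1186. CAV1 was the highest of the Ewing markers at 14915 to 28899, while FLI1 ran from 570.5 to 3762 and GLI1 from 18.4 to 173.5. Epithelial markers summed to 7091 to 31384, nearly all KRT8 and KRT18, with CDH1, EPCAM and KRT19 at most 60.5, 64.6 and 52.3. Arrays lay in 2 parts of the plate. Rows A to F held vehicle replicates 1 to 3 (2 arrays at day 3), all EC50 arrays, all doxorubicin arrays and puromycin 2xEC50 at 24 h and day 3. Rows G and H held the other vehicle arrays, all ARA-C 2xEC50 arrays and puromycin 2xEC50 at day 5. Array data have no read depth, so the number of arrays limits the precision. In such bulk samples fewer cells of a kind and less RNA per cell cannot be told apart.

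The members differed widely in how far they moved over the 67 arrays. The highest signal was 1.46 times the lowest for PSMA6, 1.56 times for PSMA4 and 1.58 times for PSMB4, all ring subunits. The same ratio was 12 for PSME1, 9.63 for PSMD10 and 8.07 for the ATPase PSMC3. Each of the 40 genes passed the test in at least 1 comparison with vehicle, 25 were never called higher and 6 never called lower. The same counts were not made over all probe sets, of which a single comparison called up to 38.0% lower. These counts alone therefore do not set the members apart.

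**Figure D1:**
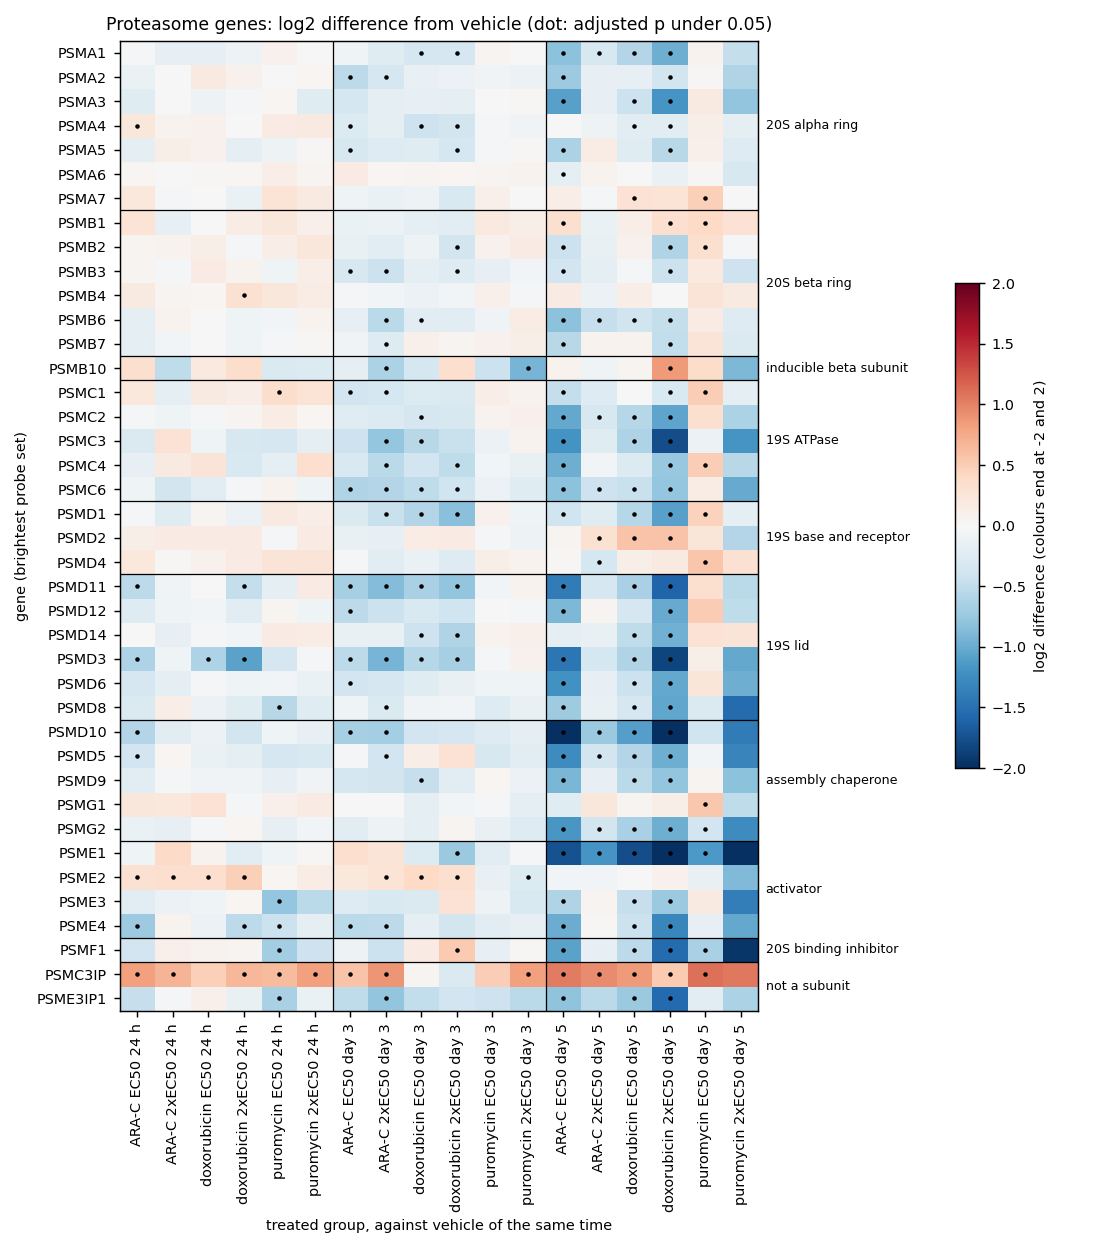
Log2 difference from vehicle of the same time for the 40 genes (rows, by role) in the 18 treated groups (columns), with colours ending at -2 and 2. Dots mark an adjusted p under 0.05, and puromycin 2xEC50 day 5, with 1 array, has no test. Blue fills the day 5 columns of ARA-C EC50 and doxorubicin, where 29, 22 and 30 genes were lower, and is sparse in the puromycin EC50 columns.

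Untreated cells changed mainly between day 3 and day 5. From 24 h to day 3 no member was called by limma (0 of 40, with 9 at an unadjusted p under 0.05), where 3.16% of all probe sets were called, and the median difference was 0.09. From day 3 to day 5, 2 members were higher and 15 lower, against 21.1% of all probe sets called in either direction, with a median of -0.21. Vehicle PSME1 rose by 1.07 ± 0.12 (SE, adjusted p = 6.3e-10) on the log2 scale in that step, from 1244 to 1462 over the 5 day 3 arrays to 1975 to 3792 over the 6 day 5 arrays. PSME2 was the other member that rose (0.25, adjusted p = 0.0077). PSMB10, the inducible beta subunit, fell by 0.66 (adjusted p = 0.0017). The day 5 vehicle arrays themselves split by plate part: PSMB10 had signals of 369 to 403 in rows A to F and 154 to 181 in rows G and H. PSMD1, a scaffold of the base, had 8754, 8994 and 9016 in rows A to F and 4477, 4658 and 4764 in rows G and H. PSME1 ran the other way, with 2351, 2188 and 1975 in rows A to F and 3792, 3367 and 3705 in rows G and H. Values against the vehicle arrays of the same rows are therefore given below for members whose described call they change. The step from day 3 to day 5 was not tested within each plate part, and the fall of PSMB10 may rest on the low signals of rows G and H.

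At 24 h few members differed from vehicle, and PSME2, PSMD3, PSME4 and PSMC3IP were each called in at least 3 of the 6 groups. At EC50, ARA-C had 3 members higher and 5 lower of 40 (14.4% of all probe sets were called), doxorubicin 1 and 1 (5.27%) and puromycin 2 and 5 (10.5%). At 2xEC50 the counts were 2 and 0 for ARA-C (8.88%), 3 and 3 for doxorubicin (14.3%) and 1 and 0 for puromycin (7.60%). The median difference of the 40 lay between -0.11 and 0.03 in these 6 groups. More members were called against vehicle of the same rows, with 6 higher and 7 lower with ARA-C EC50, 7 and 6 with puromycin EC50, 2 and 2 with ARA-C 2xEC50, and 4 and 1 with puromycin 2xEC50. The share of all probe sets called with that vehicle is not given here, so these counts do not set the members apart. The counts are small and some rest on single arrays. ARA-C EC50 gave 4 calls in place of 8 without its replicate 2 or 3. Doxorubicin EC50 gave 0 in place of 2 without its replicate 1 and 1 without its replicate 3, and doxorubicin 2xEC50 gave 3 in place of 6 without its replicate 2 or 3. Puromycin EC50 gave 3 in place of 7 without its replicate 1, 1 without its replicate 3 and 4 without vehicle replicate 1, 2 or 3. ARA-C 2xEC50 gave 1 in place of 2 without its replicate 2, and puromycin 2xEC50 gave 3 in place of 1 without its replicate 2, and 2 without its replicate 3 or without vehicle replicate 5 or 6.

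PSMD3, a lid subunit, fell with ARA-C EC50 and with both doxorubicin concentrations at 24 h. Its signal was 2803 to 3386 on the 6 vehicle arrays (median 3180.3), against 2319, 1932 and 1899 with ARA-C EC50, and against 2098, 1262 and 1275 with doxorubicin 2xEC50. Neither drug group overlapped vehicle. The difference was -0.62 ± 0.17 on the log2 scale for ARA-C EC50 (adjusted p = 0.0065) and -1.07 ± 0.17 for doxorubicin 2xEC50 (adjusted p = 3.5e-06). With doxorubicin EC50 the 3 arrays spread from 1523 to 2840.0, 1 of them inside the vehicle range, and the difference was -0.61 ± 0.17 (adjusted p = 0.016).

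PSME2, the beta subunit of PA28, rose with both DNA-damaging drugs at 24 h. Its signal was 3745 to 4365 on the vehicle arrays (median 3854), 5018, 4712 and 4896 with ARA-C EC50 and 5382, 5646 and 5491 with doxorubicin 2xEC50. All 6 of these treated arrays lay above all vehicle arrays. The difference was 0.30 ± 0.08 for ARA-C EC50 (adjusted p = 0.0086), 0.33 ± 0.08 for doxorubicin EC50 (adjusted p = 0.0093), 0.34 ± 0.08 for ARA-C 2xEC50 (adjusted p = 0.0047) and 0.48 ± 0.08 for doxorubicin 2xEC50 (adjusted p = 2.7e-05). These 4 comparisons share the vehicle arrays.

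PSME4 and a few other members were also called at this time. PSME4, a nuclear activator of the core particle, fell by 0.73 ± 0.15 with ARA-C EC50 (adjusted p = 0.00031), and doxorubicin EC50 stood 0.62 above ARA-C EC50 in the direct comparison (adjusted p = 0.019). One of its dimmer probe sets was called in the opposite direction, as described below. PSMD10 fell by 0.58 ± 0.17 (adjusted p = 0.011), PSMD11 fell by 0.52 ± 0.14 (adjusted p = 0.0079) and the alpha subunit PSMA4 rose by 0.23 ± 0.08 (adjusted p = 0.03), all with ARA-C EC50. With puromycin EC50, PSME3 (the nuclear PA28 gamma activator) fell by 0.78 ± 0.18 (adjusted p = 0.0024), PSMF1 fell by 0.69 ± 0.18 (adjusted p = 0.0067), the ATPase PSMC1 rose by 0.35 ± 0.12 (adjusted p = 0.045), and PSMD8 (lid) and PSME4 fell by 0.55 (adjusted p = 0.0002) and 0.43 (adjusted p = 0.045). The remaining calls of subunits were the chaperone PSMD5 with ARA-C EC50 (-0.38, adjusted p = 0.042) and, with doxorubicin 2xEC50, PSMB4 (0.31, adjusted p = 0.016), PSMD11 (-0.48, adjusted p = 0.015) and PSME4 (-0.52, adjusted p = 0.01).

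**Figure D2:**
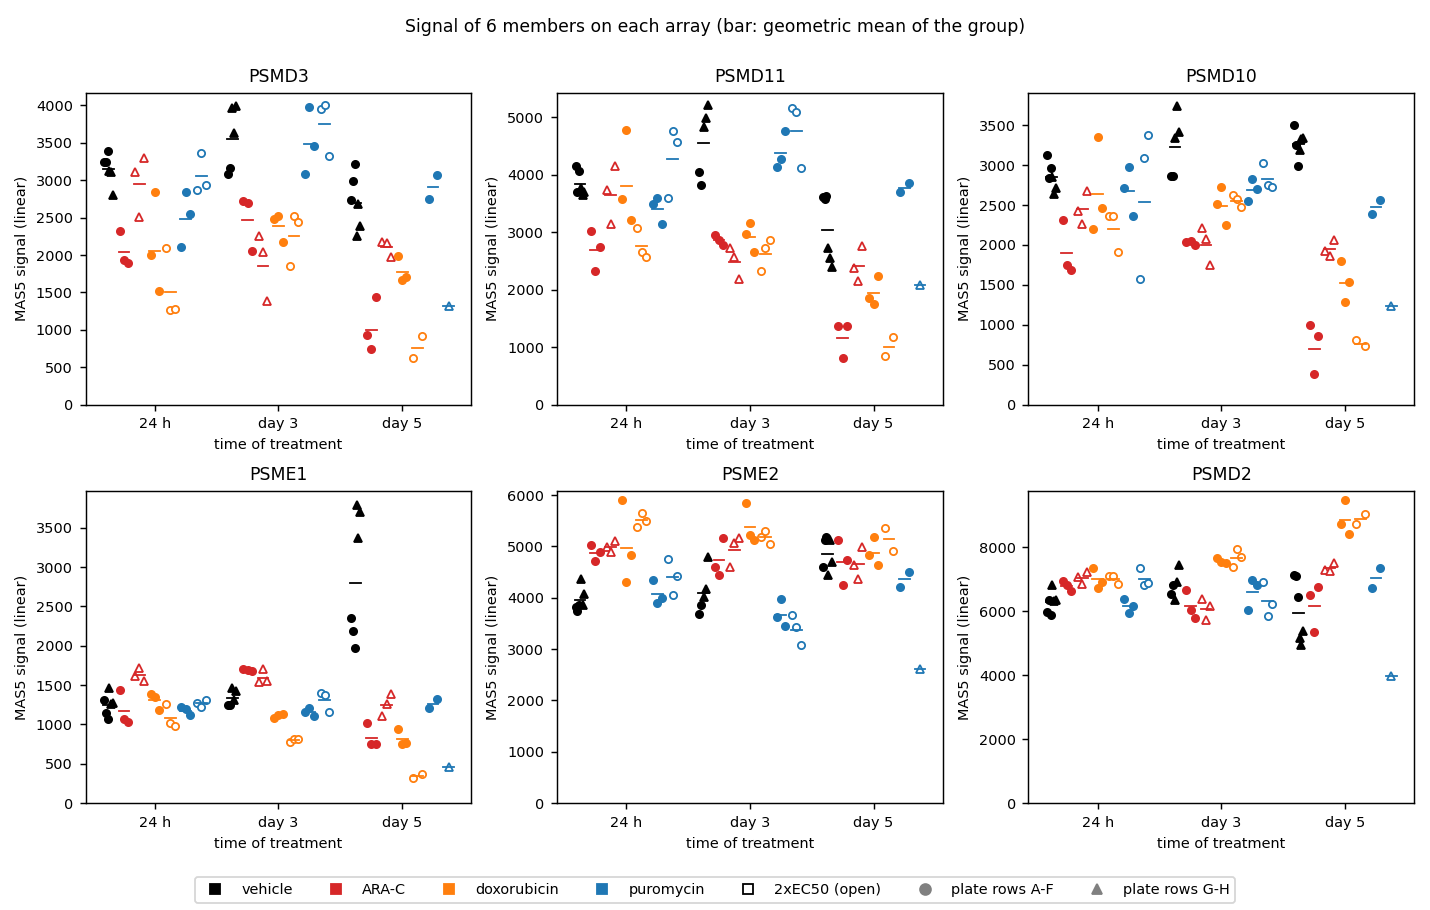
Signal of PSMD3, PSMD11, PSMD10, PSME1, PSME2 and PSMD2 on every array used (MAS5 signal, linear vertical axis from 0), by compound and time. Circles are rows A to F, triangles rows G and H, open symbols 2xEC50 and bars geometric means. PSME1 lies at 1975 to 3792 in day 5 vehicle and at 316 and 366 with doxorubicin 2xEC50, and PSMD2 lies highest with doxorubicin at day 5.

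At day 3 many members were lower with ARA-C and doxorubicin and no member was called with puromycin EC50. Fewer were lower with ARA-C EC50 and with doxorubicin against vehicle of the same rows. Some calls also rested on single arrays, and both limits are given below. ARA-C EC50 had 12 members lower and 1 higher, and 7.92% of all probe sets were called lower. Doxorubicin EC50 had 11 lower and 1 higher against 11.1% called lower. At 2xEC50, ARA-C had 18 lower and 2 higher against 8.05%, and doxorubicin 12 lower and 2 higher against 11.1%. Thus 30% and 27.5% of the members were lower at EC50, and 45% and 30% at 2xEC50. Puromycin EC50 had 0 of 40 called by limma against 2.40% called lower, with 4 members at an unadjusted p under 0.05, and puromycin 2xEC50 had 2 lower and 1 higher against 7.13%. The members' median difference was -0.23 with ARA-C EC50, -0.23 with doxorubicin EC50, -0.30 and -0.28 at 2xEC50, and -0.04 and -0.03 with the 2 puromycin concentrations. Over all probe sets the median was 0.28, 0.00, 0.00 and 0.01 in the 4 ARA-C and doxorubicin groups in that order.

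Members are bright, so the same counts were set against brighter probe sets alone. Members lay at percentiles 63.88 to 98.72 of mean signal, so the brighter probe sets are not matched to them in signal. Where probe sets under the 40th percentile of mean signal were left out, 13, 12, 19 and 16 members were lower with ARA-C EC50, doxorubicin EC50, ARA-C 2xEC50 and doxorubicin 2xEC50. The share of the remaining 13329 probe sets called lower was 14.2%, 20%, 15.3% and 19.6%. The median difference of these brighter probe sets was -0.00, -0.10, -0.01 and -0.05, nearer to 0 than the members' median in each group.

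The 6 lid and 5 ATPase genes, of 40 members, made up 6 of the 12 falls with ARA-C EC50 and 6 of the 11 with doxorubicin EC50. Several of the lid falls lost their call against vehicle of the same rows, as given below. Of the 6 lid genes, 4 fell with ARA-C EC50 (median of the 6, -0.46), and 3 fell with each of doxorubicin EC50 (median -0.36), ARA-C 2xEC50 (-0.38) and doxorubicin 2xEC50 (-0.50). Of the 5 ATPase genes, 2, 3, 4 and 2 fell in the same order, with medians of -0.38, -0.38, -0.53 and -0.40. Of the 7 alpha ring genes 3, 2, 1 and 3 fell, and of the 6 beta ring genes 1, 1, 3 and 2.

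PSMD11, a lid subunit linked to the rate of proteasome assembly, had signals of 4049.8, 3817, 4828, 4983 and 5204 on the vehicle arrays at day 3. With ARA-C EC50 it had 2952, 2868 and 2778, with doxorubicin EC50 2959, 3156 and 2646, with ARA-C 2xEC50 2719.9, 2559.7 and 2190.0, and with doxorubicin 2xEC50 2325, 2727 and 2855. All 12 arrays of these groups were below all 5 vehicle arrays. The difference was -0.66 ± 0.15 (adjusted p = 0.00064) with ARA-C EC50, -0.64 ± 0.15 (adjusted p = 0.00061) with doxorubicin EC50, -0.87 ± 0.15 (adjusted p = 6.9e-06) with ARA-C 2xEC50 and -0.79 ± 0.15 (adjusted p = 2.4e-05) with doxorubicin 2xEC50. Against vehicle of the same rows the 2 EC50 values were -0.46 and -0.43, each with an adjusted p of 0.056, and the 2 others kept their call. The dimmer probe set of PSMD11 was at -0.14 (adjusted p = 0.67) with ARA-C EC50 and at -1.08 (adjusted p = 0.0004) with doxorubicin EC50. PSMD12, also of the lid, fell by 0.53 (adjusted p = 0.032) with ARA-C EC50, which was -0.40 (adjusted p = 0.16) against vehicle of the same rows.

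PSMC6, an ATPase of the base, had 5718, 5989, 6311, 6056 and 6007 on the vehicle arrays, 4628, 3773 and 3622 with ARA-C EC50 and 4349, 4316 and 3967 with doxorubicin EC50. The groups did not overlap. It fell by 0.59 ± 0.13 (adjusted p = 0.00048) and by 0.52 (adjusted p = 0.0017), and stayed called against vehicle of the same rows (-0.55, adjusted p = 0.0049, and -0.48, adjusted p = 0.011).

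PSMD3 at day 3 had 3089, 3164, 3962, 3628 and 3990.4 on the vehicle arrays and 2258, 2041 and 1387 with ARA-C 2xEC50. The last lay far under the other arrays of its group, and all 3 were under vehicle. The difference was -0.93 ± 0.17 (adjusted p = 3.7e-05), and -1.06 against vehicle of the same rows. With doxorubicin EC50 PSMD3 was -0.57 ± 0.17 (adjusted p = 0.011), which was -0.39 (adjusted p = 0.24) with vehicle of the same rows.

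PSMD1 had 5039.8, 5068 and 4929 with doxorubicin EC50 against 6642 to 7974 on the 5 vehicle arrays, with no overlap. It fell by 0.59 ± 0.14 (adjusted p = 0.0012) at EC50 and by 0.84 ± 0.14 (adjusted p = 4.5e-06) at 2xEC50. The deubiquitinase PSMD14 fell by 0.41 ± 0.10 (adjusted p = 0.0009) with doxorubicin EC50 and by 0.60 (adjusted p = 1.3e-06) with 2xEC50, and its difference with ARA-C EC50 was -0.15 (adjusted p = 0.23). Among the proteolytic subunits PSMB6 (caspase-like site) fell by 0.53 ± 0.08 (adjusted p = 2.6e-06) and PSMB7 (trypsin-like site) by 0.26 (adjusted p = 0.045) with ARA-C 2xEC50. PSMB10, the inducible counterpart of PSMB7, fell by 0.64 ± 0.19 (adjusted p = 0.014) in that group and by 0.93 ± 0.19 (adjusted p = 0.0004) with puromycin 2xEC50, where its 3 arrays had 231, 196 and 202.

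PSME2 rose with both doxorubicin concentrations at day 3 and was 0.21 (adjusted p = 0.066) with ARA-C EC50. With doxorubicin EC50 its signals were 5838, 5225 and 5118 against 3692, 3851, 4011, 4163 and 4788 in vehicle, all 3 above the vehicle range, and it rose by 0.40 ± 0.09 (adjusted p = 0.00034). It also rose with doxorubicin 2xEC50 (0.34, adjusted p = 0.002) and with ARA-C 2xEC50 (0.27, adjusted p = 0.019, but 0.20 with an adjusted p of 0.15 against vehicle of the same rows). With puromycin 2xEC50 it fell by 0.27 ± 0.09 (adjusted p = 0.028), which was -0.16 (adjusted p = 0.49) with vehicle of the same rows. In the direct test puromycin EC50 lay under doxorubicin EC50 by 0.55 ± 0.10 (difference -0.55, adjusted p = 1.5e-05). Its partner PSME1 differed in direction by drug: its value was 0.34 (adjusted p = 0.071) with ARA-C EC50, where the arrays had 1706, 1692 and 1676 against 1244 to 1462 in vehicle, and 0.44 (adjusted p = 0.021) against vehicle of the same rows. With doxorubicin 2xEC50 the arrays had 782, 809.9 and 815, and PSME1 fell by 0.74 ± 0.14 (adjusted p = 4.6e-05). PSMF1 rose in that group by 0.53 ± 0.18 (adjusted p = 0.031), and was 0.38 (adjusted p = 0.26) against vehicle of the same rows.

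Fewer members passed the test at day 3 with fewer arrays. ARA-C EC50 gave 5 calls in place of 13 without its replicate 3, whose low signals were high (34.5 at the 10th percentile), ARA-C 2xEC50 gave 10 in place of 20 without its replicate 3, and doxorubicin gave 7 in place of 12 at EC50 and 9 in place of 14 at 2xEC50 without replicate 1 or 3. Against vehicle of the same rows, 4 were lower and 4 higher with ARA-C EC50, and 7 lower and 1 higher with doxorubicin EC50. At 2xEC50 the counts were 8 lower and 1 higher with doxorubicin, and 21 lower and 1 higher with ARA-C. The share of all probe sets called with that vehicle is not given here, so these 4 pairs of counts have no background beside them.

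At day 5 most members were lower with ARA-C EC50 and with doxorubicin at either concentration. ARA-C EC50 had 29 lower and 2 higher (72.5% lower) against 38.0% of all probe sets lower. Doxorubicin EC50 had 22 lower and 3 higher (55%) against 29.2%, and doxorubicin 2xEC50 30 lower and 4 higher (75%) against 37.9%. ARA-C 2xEC50 had 9 lower and 2 higher (22.5%) against 13.6%, and puromycin EC50 had 3 lower and 9 higher (7.5% lower) against 12.1% lower and 5.31% higher. The members' median was -0.72, -0.37, -0.77, -0.16 and 0.18 in that order. On the single puromycin 2xEC50 array it was -0.57, with 35 of 40 members under the vehicle mean and no test.

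These day 5 falls were close to those of other bright probe sets. With dim probe sets left out, 61.9% of the rest were lower with ARA-C EC50, 47.6% with doxorubicin EC50, 61.7% with doxorubicin 2xEC50 and 23.3% with ARA-C 2xEC50, and 29, 22, 30 and 10 members were lower. The median of these brighter probe sets was -0.71, -0.41, -0.83 and -0.07. RNA quality moved with the same groups. The log2 ratio of the 3′ to the 5′ probe set of ACTB, which grows as RNA is degraded, averaged 1.29 in day 5 vehicle, 3.71 with ARA-C EC50, 2.48 with doxorubicin EC50, 4.55 with doxorubicin 2xEC50, 2.28 with puromycin EC50 and 1.57 with ARA-C 2xEC50. At day 3 it was 0.53 in vehicle and 0.91 to 1.70 in the treated groups, and at 24 h it was 0.82 in vehicle and 0.66 to 1.79. Its part in the falls was not tested. When arrays were quantile normalized, 17 members were lower and 9 higher with ARA-C EC50 (median -0.17). The counts were 12 and 4 with doxorubicin EC50 (-0.11), and 17 and 8 with doxorubicin 2xEC50 (-0.14). Neither the share nor the median of other probe sets after that step is given here, so these counts do not set the members apart.

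**Figure D3:**
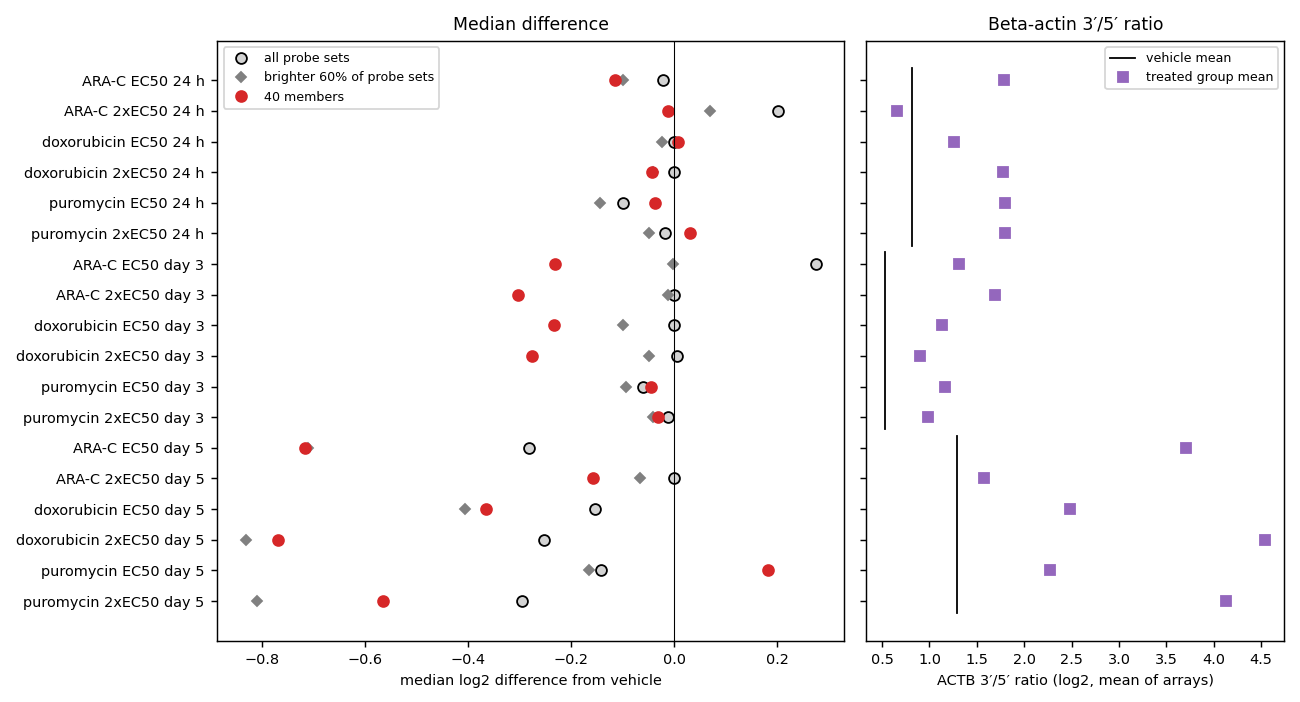
Left, median log2 difference from vehicle of the 40 proteasome genes, of all 22215 probe sets and of the brighter 60% of probe sets, by treated group. Right, log2 ratio of the 3′ to the 5′ ACTB probe set, with squares for treated group means and lines for the vehicle mean of each time. At day 3 the members lie under both other medians with ARA-C and doxorubicin (-0.23 to -0.30), and at day 5 they lie beside the brighter probe sets with ARA-C EC50 (-0.72 and -0.71).

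By role at day 5, ARA-C EC50 had lower values for 5 of 5 ATPase genes (median -0.98), 5 of 6 lid genes (-1.05), 4 of 5 chaperones (-1.16), 3 of 4 activators (-0.79), 5 of 7 alpha genes (-0.63), and 4 of 6 beta genes (-0.41) with 1 beta gene higher. Doxorubicin 2xEC50 had lower values for 5 of 5 ATPase genes, 6 of 6 lid genes (-1.02), 4 of 5 chaperones, 5 of 7 alpha genes and 4 of 6 beta genes, with 1 beta gene higher. Doxorubicin EC50 had lower values for 3 of 5, 5 of 6 and 4 of 5 of the first 3 roles, 3 of 7 alpha genes with 1 higher, and 1 of 6 beta genes.

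The chaperone PSMD10 had the deepest fall with ARA-C. Day 5 vehicle signals ran from 2994 to 3506 (median 3290.2), and ARA-C EC50 arrays had 1001, 388 and 862. Doxorubicin EC50 gave 1796, 1287 and 1537, doxorubicin 2xEC50 803 and 729, and ARA-C 2xEC50 1918, 1857 and 2065. None of these 11 arrays reached the vehicle range. The difference was -2.23 ± 0.17 (adjusted p = 1.1e-16) with ARA-C EC50, -1.10 ± 0.17 (adjusted p = 1.9e-07) with doxorubicin EC50, -2.09 ± 0.19 (adjusted p = 5.7e-14) with doxorubicin 2xEC50 and -0.75 ± 0.17 (adjusted p = 0.00036) with ARA-C 2xEC50. Puromycin EC50 arrays had 2389 and 2563, a difference of -0.40 (adjusted p = 0.16). After quantile normalization the first 3 values were -1.45, -0.71 and -1.13.

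PSME1 fell with all 3 drugs, against a vehicle level that had risen by day 5. Vehicle had a median of 2859, ARA-C EC50 arrays 1021, 751 and 752, doxorubicin EC50 944, 756 and 767, doxorubicin 2xEC50 316 and 366, ARA-C 2xEC50 1103, 1254 and 1383, and puromycin EC50 1204 and 1324. All lay under the lowest vehicle array, 1975. The differences were -1.75 ± 0.14 (adjusted p = 5.6e-16), -1.77 ± 0.14 (adjusted p = 3.4e-16), -3.04 ± 0.16 (adjusted p = 3.5e-23), -1.17 ± 0.14 (adjusted p = 6.1e-10) and -1.15 ± 0.16 (adjusted p = 4e-07) in that order. Against vehicle of the same rows the puromycin value was -0.78 (adjusted p = 5.4e-05) and the doxorubicin 2xEC50 value -2.67. The day 3 vehicle arrays had 1244 to 1462, and 2 of the 3 ARA-C 2xEC50 arrays of day 5 lie in that range. PSME2, which pairs with PSME1 in the PA28 ring, passed the test in no day 5 comparison of a drug with vehicle.

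Among the lid genes, PSMD3 fell by 1.44 ± 0.17 (adjusted p = 1e-10) with ARA-C EC50, where arrays had 926, 738 and 1434 against 2249.9 to 3223 in vehicle (median 2711). It fell by 0.60 (adjusted p = 0.0024) with doxorubicin EC50 and by 1.84 ± 0.19 (adjusted p = 3.4e-12) with 2xEC50, whose arrays had 618 and 915. With puromycin EC50 the arrays had 2744 and 3075 and the difference was 0.11 (adjusted p = 0.82). PSMD11 had 1364, 818 and 1363 with ARA-C EC50 against 2397 to 3635 in vehicle, and fell by 1.40 ± 0.14 (adjusted p = 1.9e-12). With doxorubicin it fell by 0.65 (adjusted p = 0.00013) at EC50 and 1.60 ± 0.16 (adjusted p = 1.6e-12) at 2xEC50. PSMD14 fell with doxorubicin by 0.50 ± 0.09 (adjusted p = 8.3e-06) and 0.96 ± 0.11 (adjusted p = 2.1e-11), and its value with ARA-C EC50 was -0.18 ± 0.09 (adjusted p = 0.096).

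In the base, PSMC3 fell by 1.20 ± 0.18 (adjusted p = 6.9e-08) with ARA-C EC50 and fell by 1.77 ± 0.21 (adjusted p = 9.2e-11) with doxorubicin 2xEC50, and PSMC4 fell by 0.98 ± 0.15 (adjusted p = 7.5e-08) with ARA-C EC50. PSMD2, the other scaffold of the base and a substrate receptor, rose. Its signals with doxorubicin EC50 were 8710.5, 9472 and 8409 and with 2xEC50 8722 and 9043, against 7126, 7095 and 6446 in vehicle of rows A to F and 5145, 4931 and 5391 in rows G and H. All 5 doxorubicin arrays were above every vehicle array. The rise was 0.57 ± 0.08 (adjusted p = 1.2e-07) and 0.58 ± 0.10 (adjusted p = 1.2e-06), and 0.36 (adjusted p = 0.00017) and 0.37 (adjusted p = 0.00036) against vehicle of the same rows. With ARA-C EC50 it was 0.05 (adjusted p = 0.68), and with ARA-C 2xEC50 it rose by 0.30 (adjusted p = 0.005). PSMD1 fell by 0.39 ± 0.14 (adjusted p = 0.014) with ARA-C EC50 and by 0.58 ± 0.14 (adjusted p = 0.00042) with doxorubicin EC50. Since its vehicle signal was higher in rows A to F, these became -0.86 and -1.05 with vehicle of the same rows.

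In the core particle PSMB6 fell in all 4 groups of ARA-C and doxorubicin, by 0.81 ± 0.08 (adjusted p = 1.9e-12) with ARA-C EC50 and by 0.39 to 0.48 in the other 3. PSMB7 fell by 0.56 ± 0.09 (adjusted p = 6.7e-07) with ARA-C EC50 and its difference was 0.07 (adjusted p = 0.59) with doxorubicin EC50. PSMB10 rose by 0.85 ± 0.22 (adjusted p = 0.00072) with doxorubicin 2xEC50, whose arrays had 486 and 428. Against vehicle of the same rows, at 369 to 403, this was 0.26 (adjusted p = 0.19). The alpha gene PSMA7 rose by 0.28 (adjusted p = 0.044) with doxorubicin EC50, which was 0.03 (adjusted p = 0.92) with vehicle of the same rows. PSMF1 fell by 1.07 ± 0.18 (adjusted p = 8.1e-07) with ARA-C EC50 and by 1.55 ± 0.21 (adjusted p = 4.2e-09) with doxorubicin 2xEC50. Its dimmer probe set was at -0.68 (adjusted p = 0.0001) and at -0.25 (adjusted p = 0.23) in these groups.

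With puromycin EC50 at day 5 the 9 members called higher were spread over the beta ring (2), the ATPases (2), the base (2), the alpha ring (1), the chaperones (1) and PSMC3IP. The ubiquitin receptor PSMD4 was 0.56 ± 0.14 (adjusted p = 0.0022), PSMG1 0.54 ± 0.17 (adjusted p = 0.022), PSMC1 0.49 ± 0.14 (adjusted p = 0.0071), PSMC4 0.49 ± 0.17 (adjusted p = 0.034) and PSMD1 0.46 ± 0.16 (adjusted p = 0.035). Both puromycin arrays lay in rows A to F, and against vehicle of those rows these 5 became 0.27, 0.24, 0.15, 0.41 and -0.01, with adjusted p-values of 0.23, 0.6, 0.6, 0.26 and 1. PSMB2, called at 0.32 (adjusted p = 0.017), was at 0.12 (adjusted p = 0.59). PSMC3IP was then the single member higher and PSME1 the single member lower (1 and 1 of 40, median 0.03), and leaving out puromycin replicate 1 or 2 left 3 or 2 calls in place of 12. Of the 3 falls, PSME1 is given above, PSMF1 was -0.65 ± 0.21 (adjusted p = 0.02) and the chaperone PSMG2 -0.38 ± 0.11 (adjusted p = 0.011), and these 2 were -0.34 (adjusted p = 0.5) and -0.28 (adjusted p = 0.21) against vehicle of the same rows. The dimmer sets of PSMF1 and PSMD1 were at 0.23 (adjusted p = 0.45) and -0.16 (adjusted p = 0.68) with puromycin EC50.

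The drugs were also set against each other directly at EC50, which uses no vehicle array and only arrays of rows A to F. At day 3 doxorubicin differed from ARA-C in 3 members, with PSMA2 (0.36) and PSMD2 (0.30) higher and PSME1 lower (9.35% of all probe sets were called). Puromycin stood above ARA-C in 6 and under it in 2 (18.7%), and above doxorubicin in 11 and under it in 2 (16.1%). PSMD11 was higher with puromycin by 0.61 ± 0.16 than with ARA-C (adjusted p = 0.0052) and by 0.59 ± 0.16 than with doxorubicin (adjusted p = 0.0067). PSMD1 was higher with puromycin than with doxorubicin by 0.68 ± 0.16 (adjusted p = 0.0011). PSME1 was lower than with ARA-C in both other drugs, by -0.61 ± 0.16 with doxorubicin (adjusted p = 0.0076) and -0.55 ± 0.16 with puromycin (adjusted p = 0.0097).

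At day 5 the order of the drugs ran from ARA-C, lowest, through doxorubicin to puromycin. Doxorubicin was above ARA-C in 23 members and under it in 2 (22.6% of all probe sets called, median 0.39), puromycin above ARA-C in 30 and under it in 0 (35.2%, median 0.78), and puromycin above doxorubicin in 20 and under it in 1 (23.0%, median 0.48). Brighter probe sets ran in the same order, with medians of 0.30, 0.52 and 0.23 in the same comparisons, so the order is not particular to the members. The 2 members lower with doxorubicin than with ARA-C were PSMA4 (-0.23, adjusted p = 0.049) and PSMD14. All 5 ATPase genes and 5 of 6 lid genes were higher with doxorubicin than with ARA-C, and all 5 and all 6 were higher with puromycin than with ARA-C. PSMD10 was higher than with ARA-C by 1.14 ± 0.19 with doxorubicin (adjusted p = 1.1e-05) and by 1.83 ± 0.21 with puromycin (adjusted p = 9.2e-10). PSMD11 was higher with puromycin than with ARA-C by 1.71 ± 0.18 (adjusted p = 7e-11).

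Some members left this order. PSMD14 was lower with doxorubicin than with ARA-C (-0.32 ± 0.11, adjusted p = 0.022). PSMD2 was higher with doxorubicin than with ARA-C by 0.52 ± 0.10 (adjusted p = 6.1e-05) and lower with puromycin than with doxorubicin (-0.33 ± 0.11, adjusted p = 0.021). PSME1 differed between doxorubicin and ARA-C by -0.03, with a 95% interval of -0.34 to 0.29, and was higher with puromycin than with either by 0.60 and 0.63 (adjusted p = 0.005 and 0.0058). The ACTB ratio was highest in the ARA-C EC50 group of the 3 (3.71, 2.48 and 2.28 for ARA-C, doxorubicin and puromycin), and its part in the order was not tested.

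The 2 concentrations differed in opposite directions for ARA-C and doxorubicin at day 5. Doxorubicin at 2xEC50 was under EC50 in 21 members and above it in 1 (29.4% of all probe sets called, median -0.40), and all 6 lid genes were among the 21. PSMD3 differed by -1.24 ± 0.21 (adjusted p = 1e-05), PSME1 by -1.26 ± 0.18 (adjusted p = 1.9e-07) and PSMC3 by -1.15 ± 0.23 (adjusted p = 0.0001). The exception was PSMB10, higher by 0.79 ± 0.24 (adjusted p = 0.01). ARA-C at 2xEC50 was above EC50 in 27 members and under it in 3 (37.9%, median 0.53). PSMD10 was higher by 1.49 ± 0.19 (adjusted p = 2.4e-08) and PSMD3 by 1.08 ± 0.19 (adjusted p = 6.6e-06), while PSMB1, PSMB4 and PSMD4 were lower by -0.45, -0.29 and -0.38. Brighter probe sets moved in the same way, with a median of -0.43 for doxorubicin and 0.64 for ARA-C, beside -0.40 and 0.53 for the members. All ARA-C EC50 arrays lay in rows A to F and all ARA-C 2xEC50 arrays in rows G and H, so ARA-C concentration and plate part cannot be told apart. Against vehicle of the same rows, ARA-C 2xEC50 day 5 had 5 members lower and 7 higher (median 0.01). Neither the share nor the median of all probe sets with that vehicle is given here, so this count does not set the members apart. Against all vehicle arrays, ARA-C 2xEC50 day 5 had 7 calls in place of 11 without its replicate 3.

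Several genes read differently through different probe sets. Of the members 17 had more than 1 probe set, with 23 dimmer sets in all. With ARA-C EC50 at day 5 the median difference was -0.72 for the 17 brightest sets and -0.85 for the 23 dimmer ones, and in 12 of the 17 genes the dimmer sets were lower. PSMB1, a beta ring gene, rose by 0.31 ± 0.11 (adjusted p = 0.011) through its brightest set and was at -1.07 (adjusted p = 2.9e-11) and -1.35 through the others. The brightest set was at 0.08 (adjusted p = 0.55) against vehicle of the same rows. PSMA7 was 0.14 through the brightest and -0.70 (adjusted p = 1.3e-06) through the dimmer set, and PSMB4 0.17 and -0.72 (adjusted p = 8.2e-08). PSMD4 gave 0.03, -0.71 and 0.96, and PSME4 -0.99, -1.01 and 0.76.

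Sets of 1 gene that were called in opposite directions occurred for 4 genes at day 5. These were PSMB1 and PSME4 with ARA-C EC50, PSME4 with doxorubicin EC50, PSMB2 with puromycin EC50 (0.32 and -1.93), PSMD4 with ARA-C 2xEC50, and PSMB1, PSMD4 and PSME4 with doxorubicin 2xEC50. At 24 h PSME4 was the only such gene, with ARA-C EC50, puromycin EC50 and doxorubicin 2xEC50. For these 4 genes the direction of change depends on the probe set.

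**Figure D4:**
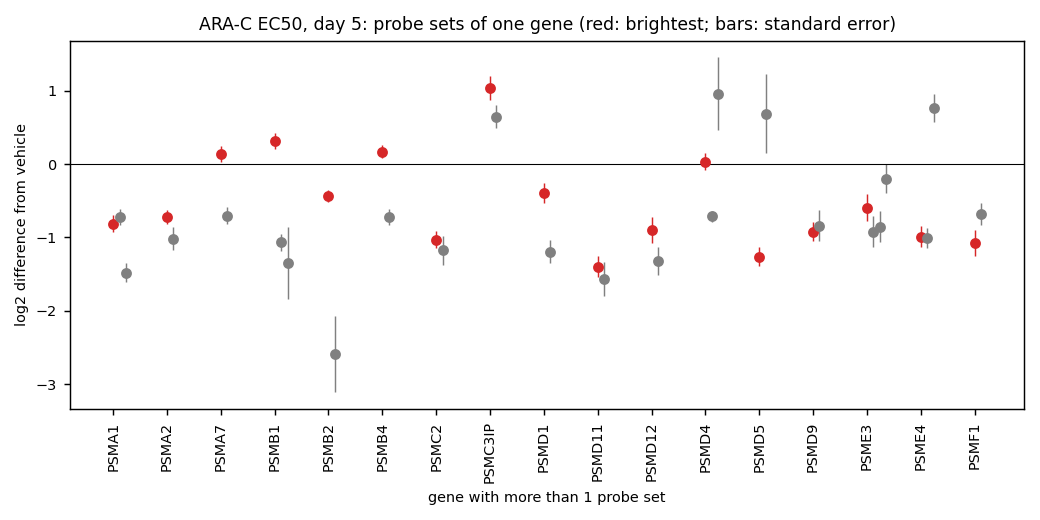
Log2 difference from vehicle with ARA-C EC50 at day 5 for each probe set of the 17 genes that had several, with bars of 1 SE. Red points are the brightest set, used in the counts, and grey points the dimmer sets. PSMB1 lies at 0.31 through its brightest set and at -1.07 and -1.35 through the others.

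PSMC3IP, a recombination protein and no subunit, rose in 13 of the 17 tested comparisons. At 24 h it rose by 0.82 ± 0.16 with ARA-C EC50 (adjusted p = 0.0003) and by 0.63 ± 0.16 with puromycin EC50 (adjusted p = 0.0068). At day 5 it was 1.03, 0.86 and 1.10 with ARA-C, doxorubicin and puromycin EC50 (adjusted p = 2.4e-07, 1.4e-05 and 2.1e-05), and 0.52, 0.35 and 0.59 against vehicle of the same rows. Its vehicle signals at day 5 were 843 to 1004 in rows A to F and 442 to 476 in rows G and H. PSME3IP1 was lower by -0.65 ± 0.21 with puromycin EC50 at 24 h (adjusted p = 0.038) and by -0.73 ± 0.21 with doxorubicin EC50 at day 5 (adjusted p = 0.004), the latter -0.47 (adjusted p = 0.13) against vehicle of the same rows.

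Other genes of the ubiquitin and proteasome pathway were listed as 34, of which 26 are named on the array. At day 3, 2 of the 26 were higher and 5 lower with ARA-C EC50, 4 and 3 with doxorubicin EC50 and 0 and 0 with puromycin EC50, where 7.92%, 11.1% and 2.40% of all probe sets were lower. At day 5 the counts were 4 and 18 (median -0.63), 8 and 10 (-0.02) and 8 and 2 (0.21), where 38.0%, 29.2% and 12.1% of all probe sets were lower. Among brighter probe sets 61.9% were lower with ARA-C EC50 and 47.6% with doxorubicin EC50 at day 5. POMP, the chaperone that matures the core particle, rose at day 5 by 0.62 ± 0.10 (adjusted p = 2.9e-07) with ARA-C, 0.56 (adjusted p = 2.9e-06) with doxorubicin and 0.40 (adjusted p = 0.0088) with puromycin at EC50. SQSTM1, a receptor that carries ubiquitinated cargo to autophagy, rose at day 5 by 1.41 ± 0.15 (adjusted p = 4.5e-11) with doxorubicin EC50. VCP, the ATPase that extracts ubiquitinated proteins for the proteasome, at day 5 fell by 1.62 (adjusted p = 5.9e-12) with ARA-C and 1.03 (adjusted p = 1.1e-06) with doxorubicin, and was -0.15 (adjusted p = 0.73) with puromycin. HDAC6, a deacetylase that binds ubiquitin, was -2.39 at day 5 with ARA-C EC50 and -2.29 with doxorubicin EC50, and the proteasome-binding PAAF1 -1.53 and -0.96. Vehicle itself moved from day 3 to day 5, by 1.03 for HDAC6 and 0.63 for PAAF1 (limma, adjusted p = 0.00051 for each). In that step SQSTM1 changed by -0.57 (adjusted p = 0.00088), VCP by -0.62 (adjusted p = 0.00087) and POMP by -0.30 (adjusted p = 0.0056). NFE2L1 encodes NRF1, known to act through antioxidant response elements, and was not called at day 3. At day 5 it fell by 0.88 ± 0.13 (adjusted p = 5.7e-08) with ARA-C and by 0.49 (adjusted p = 0.0015) with doxorubicin, and was -0.15 (adjusted p = 0.6) with puromycin. In vehicle it changed by 0.25 (adjusted p = 0.1) from day 3 to day 5. A link between NFE2L1 and the members was not tested. Values against vehicle of the same rows are not given for these pathway genes.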

How the data were processed

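Total RNA of A673 cells was hybridised to Affymetrix high-throughput expression arrays. The authors deposited MAS5 signals, linear intensities scaled by array, in 1 matrix of 68 arrays and 22930 probe sets (MAS5 per the labels; its version is not given in the sources used here). All matrix columns matched 1 sample label. After 715 control probe sets were left out, 22215 were tested. Of these 19230 had 1 gene symbol in the platform annotation, 125 several and 2860 none. PSMB5, PSMC5, PSMD7, PSMD13, PSMG3 and PSMG4 were not analysed here. The members, lists and tests were chosen with earlier results of these data known.

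Signals were floored at 10, taken to log2 and fitted with limma 3.58.1 (R 4.3.3) as 21 group means over 67 arrays, with an intensity trend and Benjamini-Hochberg adjustment over all probe sets. Log2 differences share the vehicle arrays of a time. SE is the standard error from the fit, with 54.89 degrees of freedom. The script was tested on simulated data. Alternatives were quantile normalization, a floor of 32, a cap of 16000, leaving out dim probe sets, keeping the omitted array, plate part or replicate number as a block, vehicle of the same plate part, the mean of all probe sets of a gene, and each array left out in turn. A block on replicate number is given with the limits.

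Members were named where they had the 3 largest rises or falls called at EC50 or the 2 largest at 2xEC50, for a fixed set of subunits with known function, and where probe sets disagreed. Others complete small counts and were chosen after their values were seen. Figures were drawn with matplotlib 3.10.9.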

Additional observations from a re-analysis of the deposited data

Results flagged for a closer look

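PSMD1 had 1 array apart from the rest of its group. In the 5 vehicle arrays of day 3, replicate 1 had a signal of 6641.9 and the others 7611 to 7974. Of 120 groups of signals tested in this way 1 stood out, and chance gives about 1 in 20.

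Some members were called in opposite directions by 2 drugs at day 5, and the direct comparison of the drugs at EC50 passed the test as well. Puromycin stood above ARA-C by 0.76 on the log2 scale for PSMB2 (limma, adjusted p = 1.7e-07), 0.97 for PSMC1 (adjusted p = 5.3e-07), 1.47 for PSMC4 (adjusted p = 8e-09) and 0.85 for PSMD1 (adjusted p = 8.5e-05). Puromycin stood above doxorubicin by 1.03 for PSMD1 (adjusted p = 7.6e-06). The direct values rest on arrays of rows A to F alone. The rises of PSMB2, PSMC1, PSMC4 and PSMD1 against vehicle all lost their call with vehicle of the same rows, and a dimmer probe set of PSMB2 was called lower with puromycin.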

How the results depend on the processing

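Counts are members called of 40, higher and lower together. The share of all probe sets called under each alternative is not given here, so the counts do not set the members apart. With the omitted puromycin array kept, puromycin EC50 at day 5 had 16 calls and most other comparisons fewer. At 24 h they were 1 for ARA-C EC50, 0 for doxorubicin EC50, 3 for puromycin EC50, 1 for ARA-C 2xEC50 and 1 for doxorubicin 2xEC50. At day 3 they were 3 for ARA-C EC50, 3 for doxorubicin EC50, 4 for ARA-C 2xEC50 and 4 for doxorubicin 2xEC50, and at day 5 12 for doxorubicin EC50 and 3 for ARA-C 2xEC50. Between drugs they were 0, 2 and 0 at day 3 for doxorubicin against ARA-C, puromycin against ARA-C and puromycin against doxorubicin, and 6, 14 and 8 at day 5. Between concentrations at day 5 they were 15 for ARA-C and 6 for doxorubicin, and 3 for vehicle day 5 against day 3. Quantile normalization gave 4 for ARA-C 2xEC50 and 6 for puromycin 2xEC50 at 24 h, 22 for doxorubicin 2xEC50 at day 3, 16 for doxorubicin EC50 at day 5, 7 for doxorubicin against ARA-C and 19 for puromycin against ARA-C at day 5, 16 and 8 between concentrations of ARA-C and doxorubicin, and 1 for vehicle day 3 against 24 h. Vehicle of the same plate part gave 13, 13, 4 and 5 at 24 h for ARA-C EC50, puromycin EC50, ARA-C 2xEC50 and puromycin 2xEC50, 8, 9 and 5 at day 3 for ARA-C EC50, doxorubicin 2xEC50 and puromycin 2xEC50, and 2 for puromycin EC50 at day 5. Plate part as a block gave 3 for puromycin 2xEC50 at 24 h, 1 for puromycin EC50 at day 3, and 7 each for puromycin EC50 and ARA-C 2xEC50 at day 5. A floor of 32 gave 4 for ARA-C 2xEC50 at 24 h, leaving out dim probe sets gave 2 for puromycin 2xEC50 at 24 h, and the mean of all probe sets gave 1 for puromycin EC50 at day 3. The cause of these changes was not tested.

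Samples with the same number did not deviate together (correlations -0.099 to 0.114, no comparison with every pair over 0.1), so the numbers were not taken as pairs. The replicate block gave 4 for puromycin EC50, 5 for ARA-C 2xEC50 and 2 for puromycin 2xEC50 at 24 h, and 1 and 7 for puromycin EC50 at days 3 and 5.

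Among the members named for the size of their change, values of 4 changed sign: PSME4 with doxorubicin 2xEC50 at 24 h to 0.12 and PSMB1 with ARA-C EC50 at day 5 to -0.70 with the mean of all probe sets, and PSMD4 to -0.039 and PSMG1 to -0.17 with puromycin EC50 at day 5 when the omitted array was kept. Outside these, PSMD1 with puromycin EC50 at day 5 turned to -0.01 with vehicle of the same plate part. Of the other values of members named for size under these alternatives 503 kept their direction and side of the threshold and 69 lost the call. Leaving out 1 array at a time, 485 kept both and 62 lost the call.

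Leaving out 1 array at a time gave, at 24 h, 4 to 9 calls for ARA-C EC50, 0 to 3 for doxorubicin EC50, 1 to 6 for puromycin EC50, 1 to 3 for ARA-C 2xEC50, 3 to 7 for doxorubicin 2xEC50 and 1 to 3 for puromycin 2xEC50. At day 3 it gave 5 to 13, 7 to 12, 0 to 0, 10 to 19, 9 to 15 and 2 to 3 in the same order. At day 5 it gave 28 to 32 for ARA-C EC50, 18 to 25 for doxorubicin EC50, 2 to 18 for puromycin EC50, 7 to 14 for ARA-C 2xEC50 and 30 to 34 for doxorubicin 2xEC50.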

Other observations

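On the puromycin EC50 day 5 array that was left out, 34 of the 40 members had a lower signal than on both other arrays of the group and 6 a higher one. PSMD3 was at 29.1 there and PSME1 at 2093, against 1204 and 1324 for PSME1 on the others. On the single puromycin 2xEC50 array of day 5, PSMD10 had a signal of 1236 and PSME1 460.3, both under the lowest day 5 vehicle array. The ACTB 3′ to 5′ log2 ratio of that array was 4.13.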
